A study of Homo sapiens with 18 samples.

Results

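The genes described here are the semaphorins of classes 3 to 7 with their neuropilin and plexin receptors, and the ephrins with their Eph receptors, in A549, a widely used cell line from a human lung adenocarcinoma. They were taken by symbol from the gene annotation of the array: every symbol that begins with SEMA3 to SEMA7, PLXNA to PLXND, EPHA, EPHB, EFNA or EFNB and a number, together with NRP1 and NRP2. The brightest probe set stood for each symbol. This gave 51 of the 18377 genes tested. They were 19 semaphorins (7 of the secreted class 3 and 12 of classes 4 to 7), 2 neuropilins, 9 plexins, 8 ephrins (5 of the A and 3 of the B class) and 13 Eph receptors (9 EphA and 4 EphB).

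Semaphorins are secreted or membrane-bound guidance proteins that signal mainly through plexins, whose cytoplasmic part acts on small GTPases of the Ras family. Most class 3 semaphorins first bind a neuropilin, which also serves as a co-receptor for vascular endothelial growth factor. Ephrins are bound to the membrane of one cell and activate Eph receptor tyrosine kinases on its neighbour, with signals running in both directions. In epithelia and carcinomas both systems are known for setting cell contact, repulsion and migration, and TGFβ is known for driving the epithelial to mesenchymal transition in A549 cells.

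The 18 whole-transcript arrays fell into 6 groups of 3. In one arm (siPKCiz) cells carried siRNA against PKCiota and PKCzeta, the atypical isoforms of protein kinase C, and in the other (siControl) a control siRNA. Within each arm, cells were untreated or had received 250 pM TGFβ for 1 h, after which they were washed and kept for another 7 h or 23 h, here called 8 h and 24 h. Cells had been grown in 10% serum and starved of it before TGFβ, and the later hours were in 0.2% serum. The untreated arrays carry no time in their labels, and each arm has a single untreated group. In changes against untreated cells and between 8 h and 24 h, TGFβ therefore cannot be told apart from the wash and the hours in low serum. Because both isoforms were silenced together, their parts cannot be told apart. The groups hold labelled biological replicates of 1 cell line, with no statement on separate cultures, so the p-values measure the spread between these arrays.

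Values are the deposited RMA intensities, a linear scale of probe brightness. Changes are differences of group means on the log2 scale, and ± is the standard error of the limma fit unless stated otherwise. Calls rest on p-values adjusted by the Benjamini-Hochberg method across the 18377 genes, with 0.05 as the threshold in each comparison. The median intensity of an array lay between 156.1 and 160.7, and replicate arrays correlated at 0.9906 to 0.9968 across all probe sets on the log2 scale. In each of the 6 groups replicates 2 and 3 were closest to each other. PRKCI, which encodes PKCiota, lay between 457 and 621 in siPKCiz arrays and between 2095 and 2818 in siControl arrays, a 4.73-fold lower level (log2 change -2.24 ± 0.05, adjusted p = 1.98e-15). PRKCZ, which encodes PKCzeta, lay between 142 and 254 in siPKCiz arrays and between 265 and 490.0 in siControl arrays (2.10-fold lower, log2 change -1.07 ± 0.14, adjusted p = 3.43e-05). The PRKCZ difference was smaller in replicate 1: the 3 siPKCiz arrays of that number were at 242, 254 and 206, above all other siPKCiz arrays, and the 3 siControl arrays at 265, 309 and 302, below all other siControl arrays. PRKCZ was 2.73-fold lower without replicate 1, 1.87-fold without replicate 2 and 1.82-fold without replicate 3, whereas PRKCI stayed between 4.55-fold and 4.88-fold lower. Whether this bears on the calls that replicate 1 changes was not tested. All 6 epithelial markers (KRT8, KRT18, KRT19, EPCAM, CDH1 and CLDN4) were brighter than the median of the arrays in their mean over all arrays, though CLDN4 was below it in both untreated groups. All 4 measured leukocyte and all 4 endothelial markers were dimmer than it.

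Of the 51 genes, 27 were called in at least 1 of 9 comparisons, beside 33.1% of all genes. These were 11 semaphorins, both neuropilins, 6 plexins, 5 ephrins and 3 Eph receptors. SEMA7A had the largest change of the 51 in each comparison of TGFβ with untreated cells. NRP2, SEMA3C, EPHB1 and EPHA4 were among the genes that were higher with TGFβ, and SEMA3A, SEMA4G, NRP1, SEMA4D and EFNA5 among those that were lower. In a bulk sample, fewer cells that express a gene and less RNA per cell cannot be told apart.

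At 8 h, 8 of the 51 genes were called in siPKCiz cells (2 higher, 6 lower) and 7 in siControl cells (2 higher, 5 lower). Over all genes tested, 6.48% were called in siPKCiz cells (3.13% higher, 3.35% lower) and 11.4% in siControl cells (5.17% higher, 6.18% lower). At 24 h, 13 were called in siPKCiz cells (8 higher, 5 lower) and 15 in siControl cells (9 higher, 6 lower). The shares of all genes were then 10.7% in siPKCiz cells (4.65% higher, 6.09% lower) and 12.3% in siControl cells (5.85% higher, 6.46% lower). The members' shares were 15.7% in siPKCiz and 13.7% in siControl cells at 8 h, and 25.5% in siPKCiz and 29.4% in siControl cells at 24 h. Their median change at 24 h was nonetheless close to 0, at 0.05 in siPKCiz and 0.02 in siControl cells, with members moving both ways. For all genes it was -0.01 in both arms. Comparisons within an arm share its untreated arrays.

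**Figure D1:**
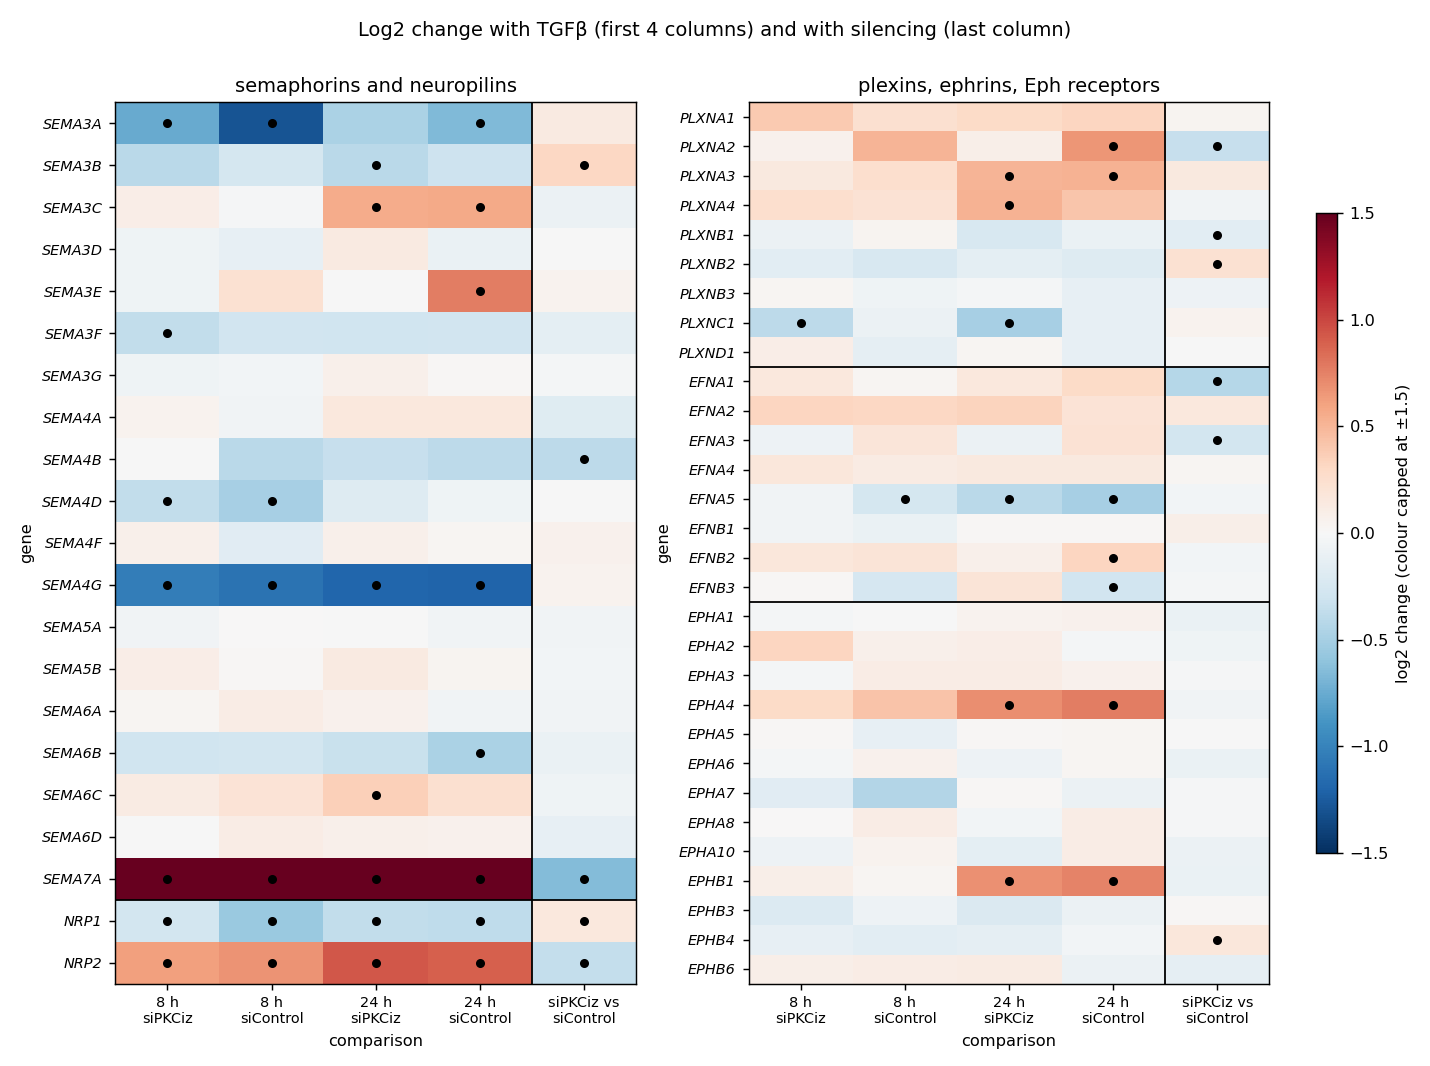
Log2 change (colour, capped at 1.5 in either direction) of the 51 genes in 5 comparisons: TGFβ at 8 h and 24 h against untreated in siPKCiz and in siControl cells, and siPKCiz against siControl as the mean of 3 conditions; a dot marks a called change. The SEMA7A row is the darkest red, while most Eph receptor rows are pale.

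SEMA7A is a semaphorin held at the cell surface by a lipid anchor; it signals through integrin beta1 and also binds plexin C1, and in mice it has been linked to TGFβ-driven lung fibrosis. In siPKCiz cells its intensity was 100.4, 110.5 and 112 untreated, 848, 578 and 588 at 8 h, and 637, 666 and 474 at 24 h. In siControl cells it was 122, 134 and 145 untreated, 1862, 1111 and 963 at 8 h, and 542, 1316 and 1236 at 24 h. Every TGFβ array was several times above every untreated array in both arms. The change at 8 h was 2.62 ± 0.27 in siPKCiz cells (6.15-fold, adjusted p = 1.65e-05) and 3.24 ± 0.27 in siControl cells (9.45-fold, adjusted p = 1.52e-06). At 24 h it was 2.45 ± 0.27 in siPKCiz cells (5.46-fold, adjusted p = 9.8e-06) and 2.85 ± 0.27 in siControl cells (7.20-fold, adjusted p = 1.5e-06). All 4 calls held when any replicate number was left out. One siControl array at 24 h, replicate 1, was at 542, below the other two of its group.

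SEMA7A lies on chromosome 15. The window around its annotated start site (250 bases before to 50 after, chr15:74433909-74434208 on the minus strand, RefSeq, GRCh38.p14) is printed because SEMA7A rose most of the 51. Capitals mark the 5-base SMAD box CAGAC or its reverse complement GTCTG, a short motif to which SMAD3 and SMAD4, the transcription factors downstream of TGFβ, can bind.
SEMA7A: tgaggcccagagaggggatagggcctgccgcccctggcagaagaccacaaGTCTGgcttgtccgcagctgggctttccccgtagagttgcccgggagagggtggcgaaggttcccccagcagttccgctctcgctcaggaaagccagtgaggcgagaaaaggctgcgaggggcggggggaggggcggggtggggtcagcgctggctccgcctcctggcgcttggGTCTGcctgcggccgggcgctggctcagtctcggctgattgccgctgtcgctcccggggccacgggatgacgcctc
The window held 2 boxes, at -200 and -26 relative to the start site. A box of this kind is common: it was in 45.3% of all 35116 promoter windows of the same length and in 19 of the 45 windows found for the 51 genes (42.2%). Searched on both strands as well were the palindrome GTCTAGAC, the AP-1 site TGANTCA and the E-box CAGGTG bound by SNAI factors. The palindrome was in 0.202% of all windows and in 0 of the 45, the AP-1 site in 7.71% and 1, and the E-box in 20.6% and 9. None of these 3 was in the SEMA7A window.

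Among the class 3 semaphorins, SEMA3A fell and SEMA3C rose. SEMA3A, the classical repulsive ligand of NRP1 and the A plexins, had intensities in siPKCiz cells of 1961, 2751 and 2832 untreated, 1055, 1696 and 1769 at 8 h, and 1812, 1741 and 1806 at 24 h. In siControl cells they were 2643, 2739 and 2661 untreated, 1307, 977 and 1014 at 8 h, and 2486, 1303 and 1501 at 24 h. The lowest group mean was at 8 h in both arms; at 24 h siControl replicate 1 was close to the untreated arrays. The change at 8 h was -0.76 ± 0.21 in siPKCiz (adjusted p = 0.0351) and -1.30 ± 0.21 in siControl cells (adjusted p = 0.000391). At 24 h it was -0.47 ± 0.21 in siPKCiz (adjusted p = 0.175, not called) and -0.66 ± 0.21 in siControl cells (adjusted p = 0.0451). The 8 h call in siControl cells held without any 1 replicate number. Without replicate 2, the adjusted p was 0.202 at 8 h in siPKCiz and 0.454 at 24 h in siControl cells; without replicate 3 it was 0.233 and 0.338. Without replicate 1, SEMA3A was called at 24 h in both arms, at -0.65 ± 0.09 in siPKCiz (adjusted p = 0.000125) and -0.95 ± 0.09 in siControl cells (adjusted p = 1.29e-06).

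SEMA3C, which signals through both neuropilins and plexin D1, was called at 24 h but not at 8 h. Its intensities in siPKCiz cells were 3331, 3741 and 3919.9 untreated, 4090.3, 3838 and 3874 at 8 h, and 6258, 4697 and 5311 at 24 h. The siControl arrays had 3867, 4199 and 3862 untreated, 3829, 4075 and 3842 at 8 h, and 5634, 5991 and 6118 at 24 h. At 8 h the arrays overlapped with the untreated ones, and at 24 h all were higher. The 24 h change was 0.56 ± 0.09 in siPKCiz (adjusted p = 0.000477) and 0.57 ± 0.09 in siControl cells (adjusted p = 0.000303; 0.0508 without replicate 3). SEMA3C was 1 of 3 members, all higher, called between 24 h and 8 h in siControl cells (0.59 ± 0.09, adjusted p = 0.00171), beside 1.31% of all genes called higher. That call was lost without replicate 2 or 3 (adjusted p = 0.0893 and 0.16). The SEMA3C window (chr7:80922340-80922639, minus strand) is shown as that of a gene called at 24 h and not at 8 h.
SEMA3C: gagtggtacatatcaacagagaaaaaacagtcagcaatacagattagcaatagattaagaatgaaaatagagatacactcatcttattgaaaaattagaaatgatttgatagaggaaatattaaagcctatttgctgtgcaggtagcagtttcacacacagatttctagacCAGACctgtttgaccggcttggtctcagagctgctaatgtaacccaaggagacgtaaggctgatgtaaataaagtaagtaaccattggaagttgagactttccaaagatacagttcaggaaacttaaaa
It held 1 SMAD box, in capitals, at -79, and none of the other 3 motifs.

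The other called class 3 genes changed by less or in 1 arm. SEMA3E, a ligand that binds plexin D1 without a neuropilin, was called at 24 h in siControl cells (0.76 ± 0.18, adjusted p = 0.00805), where its intensities were 194, 343 and 316, against 138, 168 and 186 in untreated cells. That call was lost without replicate 2 or 3 (adjusted p = 0.207 and 0.106). In siPKCiz cells the SEMA3E change was -0.01 ± 0.18, adjusted p = 0.988. SEMA3B and SEMA3F are secreted ligands encoded on chromosome 3, and SEMA3F binds mainly NRP2. SEMA3F was lower at 8 h in siPKCiz cells (-0.36 ± 0.10, adjusted p = 0.0333), but leaving out replicate 1 brought the change to -0.16 (adjusted p = 0.409), and it was not called without replicate 2 or 3 either (0.117 and 0.138). SEMA3B was lower at 24 h in siPKCiz cells (-0.40 ± 0.13, adjusted p = 0.048). Without replicate 1 that change was -0.26 (adjusted p = 0.0713), and without replicate 2 or 3 it was not called (0.246 and 0.102). SEMA3F lay between 127 and 214 in siPKCiz and between 156 and 206 in siControl cells over all arrays. SEMA3D and SEMA3G were called in no comparison.

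SEMA4G, a transmembrane semaphorin of chromosome 10, was lower with TGFβ at both times and in both arms. In siPKCiz cells its intensities were 1066, 626 and 622 untreated, 344, 359 and 389.9 at 8 h, and 268, 342 and 385 at 24 h. siControl cells had 896, 593 and 738 untreated, 289.8, 365 and 376 at 8 h, and 277, 367 and 315 at 24 h. All 12 TGFβ arrays were below all 6 untreated arrays, of which the 2 of replicate 1 were the brightest. At 8 h the change was -1.04 ± 0.19 in siPKCiz (adjusted p = 0.00204) and -1.10 ± 0.19 in siControl cells (adjusted p = 0.000744). At 24 h it was -1.19 ± 0.19 in siPKCiz (adjusted p = 0.000371) and -1.20 ± 0.19 in siControl cells (adjusted p = 0.000265). These calls held without any 1 replicate number, though the 24 h change in siPKCiz cells was -0.78 without replicate 1. The SEMA4G window (chr10:100969254-100969553, plus strand) is shown as that of the semaphorin called lower at both times in both arms.
SEMA4G: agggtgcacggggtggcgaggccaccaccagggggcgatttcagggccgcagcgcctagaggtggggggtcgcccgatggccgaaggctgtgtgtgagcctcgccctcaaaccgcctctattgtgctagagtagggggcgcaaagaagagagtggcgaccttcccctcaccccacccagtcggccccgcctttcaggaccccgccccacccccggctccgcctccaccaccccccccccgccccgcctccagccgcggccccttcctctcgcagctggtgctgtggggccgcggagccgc
It held none of the 4 motifs, so it has no capitals.

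SEMA4D, the ligand of plexin B1 also known as CD100, had intensities in siPKCiz cells of 406, 433 and 400.1 untreated, 318, 309 and 336 at 8 h, and 328, 368 and 389.5 at 24 h. Those of siControl cells were 405, 421 and 423 untreated, 317, 276 and 292 at 8 h, and 428, 396 and 371 at 24 h. Its group mean was lowest at 8 h in both arms. The 8 h change was -0.36 ± 0.08 in siPKCiz (adjusted p = 0.00855) and -0.50 ± 0.08 in siControl cells (adjusted p = 0.000396), and SEMA4D was higher at 24 h than at 8 h in siControl cells (0.43 ± 0.08, adjusted p = 0.0069). Without replicate 2 these 3 calls were lost (adjusted p = 0.268, 0.0589 and 0.306); without replicate 3 the 8 h call in siPKCiz cells (0.0797) and the late rise (0.133) were lost. A dimmer probe set of SEMA4D changed by -0.13 ± 0.10 at 8 h in siControl cells (adjusted p = 0.505).

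SEMA6B and SEMA6C, transmembrane ligands of A plexins, were called once each with TGFβ. SEMA6B was lower at 24 h in siControl cells (-0.48 ± 0.11, adjusted p = 0.00576; 0.0957 without replicate 2 and 0.1 without replicate 3). SEMA6C was higher at 24 h in siPKCiz cells (0.36 ± 0.09, adjusted p = 0.0138), with 0.20 without replicate 1 (adjusted p = 0.2) and no call without replicate 3 (0.137). Over all arrays SEMA6B lay between 115 and 186 in siPKCiz and between 135 and 211 in siControl cells. SEMA6C lay between 101 and 161 in siPKCiz and between 114 and 144 in siControl cells, with a mean below the median of the arrays. The transmembrane semaphorins SEMA4A, SEMA4F, SEMA5A, SEMA5B, SEMA6A and SEMA6D were called in no comparison.

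The 2 neuropilins moved in opposite directions. NRP2 had intensities in siPKCiz cells of 2012, 1954 and 2020.1 untreated, 3801, 2385 and 3137 at 8 h, and 4147, 3369 and 3986 at 24 h. In siControl cells they were 2268, 2631 and 2786 untreated, 4102, 3589 and 4534 at 8 h, and 3892, 5193 and 5369 at 24 h. Within each arm all 6 TGFβ arrays were above all 3 untreated arrays. Changes at 8 h were 0.61 ± 0.15 in siPKCiz (adjusted p = 0.0158) and 0.67 ± 0.15 in siControl cells (adjusted p = 0.00532), and at 24 h 0.94 ± 0.15 in siPKCiz (adjusted p = 0.000329) and 0.90 ± 0.15 in siControl cells (adjusted p = 0.00038). Both 24 h calls held without any 1 replicate number, while without replicate 3 the adjusted p at 8 h was 0.193 in siPKCiz and 0.106 in siControl cells. The probe set used is annotated to cDNA clones only; the second NRP2 probe set, annotated to the RefSeq transcripts, changed by 0.50 ± 0.11 and 0.46 ± 0.11 at 8 h and by 0.68 ± 0.11 and 0.59 ± 0.11 at 24 h in siPKCiz and siControl cells, and was called in all 4. The NRP2 window (chr2:205682251-205682550, plus strand) is shown as that of the receptor that rose most.
NRP2: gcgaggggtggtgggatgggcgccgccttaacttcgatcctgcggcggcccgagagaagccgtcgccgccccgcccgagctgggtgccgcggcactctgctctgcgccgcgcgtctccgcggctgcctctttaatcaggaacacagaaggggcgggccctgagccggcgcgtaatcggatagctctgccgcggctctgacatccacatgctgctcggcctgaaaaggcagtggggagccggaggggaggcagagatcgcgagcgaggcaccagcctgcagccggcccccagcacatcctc
None of the 4 motifs was in these letters.

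NRP1, the co-receptor of SEMA3A, had intensities in siPKCiz cells of 2002, 2221 and 2230.4 untreated, 1866, 1690.5 and 1761 at 8 h, and 1609.5, 1692 and 1702 at 24 h. The siControl arrays had 2040.3, 2182 and 1975 untreated, 1409, 1419 and 1383 at 8 h, and 1680.2, 1618 and 1451 at 24 h. All TGFβ arrays were below the untreated arrays of their arm, and the lowest group was siControl at 8 h. The change at 8 h was -0.28 ± 0.08 in siPKCiz (adjusted p = 0.0296) and -0.56 ± 0.08 in siControl cells (adjusted p = 8.06e-05). At 24 h it was -0.37 ± 0.08 in siPKCiz (adjusted p = 0.00316) and -0.39 ± 0.08 in siControl cells (adjusted p = 0.0017). The 8 h call in siControl cells held without any 1 replicate number. The other 3 were lost without replicate 2 or 3, with adjusted p between 0.0795 and 0.418.

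**Figure D2:**
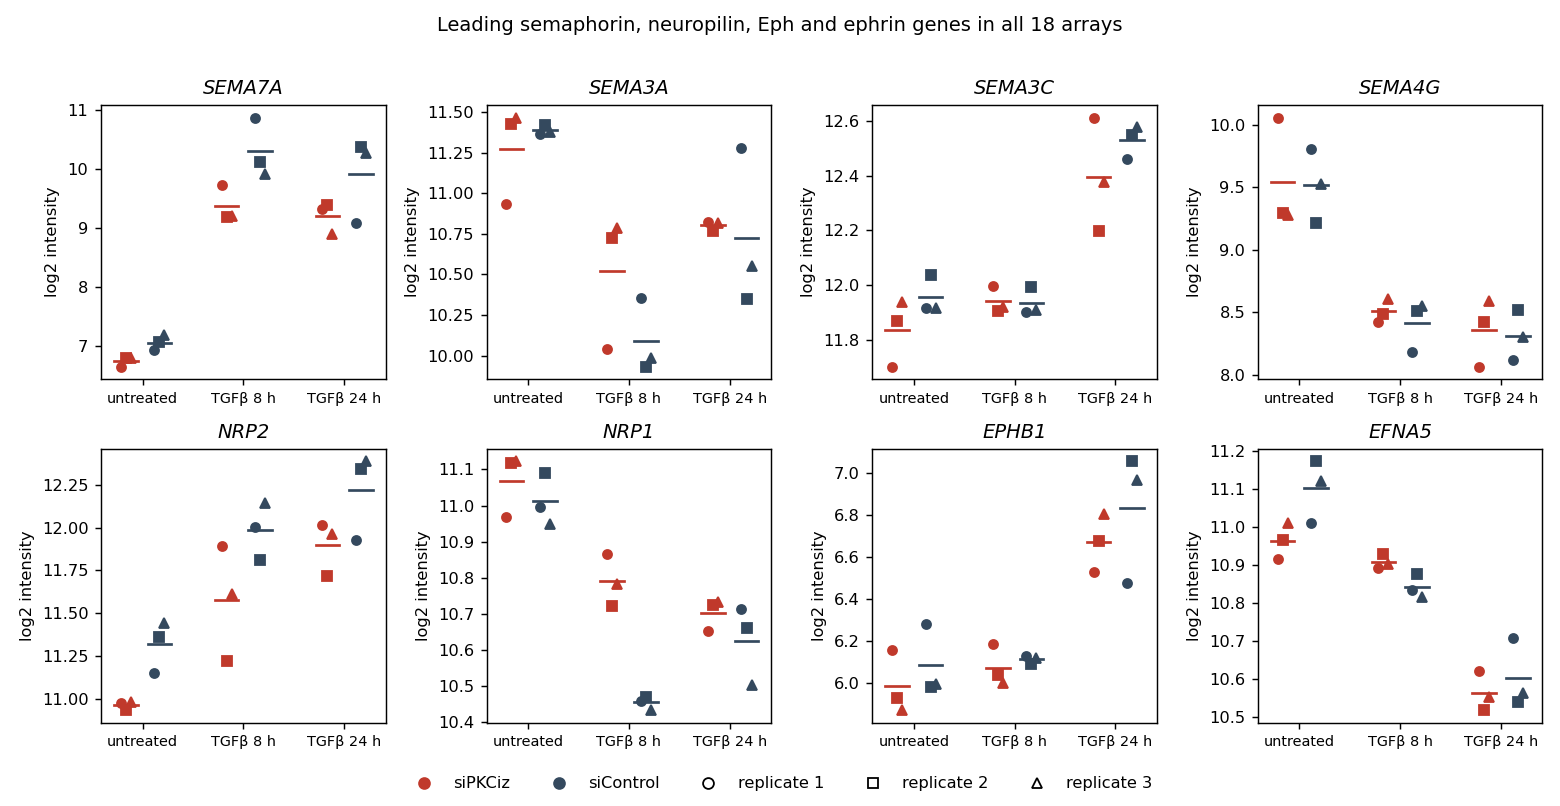
Log2 intensity of 8 genes in all 18 arrays, by condition, with siPKCiz in red left of siControl in dark blue; symbols are replicates 1 to 3 and lines are group means. SEMA7A and NRP2 were higher and NRP1 and SEMA4G lower in the TGFβ groups at both times, while SEMA3C and EPHB1 were higher at 24 h.

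Of the 9 plexins, 4 were called with TGFβ: PLXNA2, PLXNA3 and PLXNA4 rose and PLXNC1 fell. PLXNA3, a receptor for class 3 semaphorins with neuropilins, had intensities in siPKCiz cells of 159, 139 and 141 untreated, 154, 155 and 176 at 8 h, and 257, 206 and 169 at 24 h. siControl cells had 108, 140.0 and 140.3 untreated, 162, 151 and 147 at 8 h, and 161, 198 and 195 at 24 h. The 24 h arrays were above the untreated arrays in both arms. The 24 h change was 0.51 ± 0.13 in siPKCiz (adjusted p = 0.0168) and 0.52 ± 0.13 in siControl cells (adjusted p = 0.0132). Both calls were lost without replicate 2 (0.216 and 0.185) and the siControl call without replicate 3 (0.0825). PLXNA2 was called in siControl cells at 24 h (0.67 ± 0.17, adjusted p = 0.0109), where its intensities were 168, 298 and 299.6, against 165, 153 and 149 in untreated cells. Replicate 1 lay close to the untreated arrays, and without replicate 2 or 3 the call was lost (adjusted p = 0.268 and 0.272).

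PLXNA4 was called at 24 h in siPKCiz cells (0.52 ± 0.15, adjusted p = 0.0275), but its groups overlapped. Over all arrays it lay between 95.9 and 222 in siPKCiz and between 109 and 182 in siControl cells, with a mean below the median of the arrays. Without replicate 1 its change was 0.18 (adjusted p = 0.326), and without replicate 2 or 3 the adjusted p was 0.0716 and 0.0738. PLXNC1, the plexin that binds SEMA7A, was lower in siPKCiz cells at 8 h (-0.39 ± 0.10, adjusted p = 0.0232) and at 24 h (-0.50 ± 0.10, adjusted p = 0.00262). Its intensities there were 98.6, 85.6 and 85.0 untreated, 71.1, 65.1 and 68.9 at 8 h, and 55.1, 64.6 and 71.1 at 24 h, and in siControl cells 81.6, 70.8 and 68.9 untreated, 68.9, 65.3 and 73.9 at 8 h, and 61.2, 70.3 and 71.0 at 24 h. All of these are dim, below the median of the arrays. Untreated siPKCiz arrays were the brightest group for PLXNC1. At 24 h the siPKCiz change was -0.33 without replicate 1 and was not called without replicate 2 (adjusted p = 0.0575); the 8 h call was lost without replicate 2 or 3 (0.254 and 0.128). The beta1 integrin gene ITGB1, which encodes the other receptor of SEMA7A, was not called in any of the 9 comparisons, with TGFβ changes between 0.03 and 0.15.

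Among the 13 Eph receptors, EPHA4 and EPHB1 were called with TGFβ, both higher at 24 h in both arms. EPHB1, a receptor of B ephrins, had intensities in siPKCiz cells of 71.4, 60.9 and 58.5 untreated, 72.8, 65.6 and 63.9 at 8 h, and 92.3, 102 and 112 at 24 h. Those of siControl cells were 77.8, 63.3 and 63.7 untreated, 70.0, 68.1 and 69.4 at 8 h, and 89.0, 133 and 125 at 24 h. Arrays at 8 h overlapped with the untreated ones, and all 24 h arrays were above both. The 24 h change was 0.68 ± 0.13 in siPKCiz (adjusted p = 0.00148) and 0.75 ± 0.13 in siControl cells (adjusted p = 0.000546), and 24 h was above 8 h in siControl cells (0.72 ± 0.13, adjusted p = 0.00503). Without replicate 2 or 3 these calls were lost, with adjusted p between 0.06 and 0.295.

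EPHA4, which binds ephrins of both classes, had intensities in siPKCiz cells of 98.1, 132 and 133 untreated, 167, 139.5 and 135 at 8 h, and 283, 162 and 158 at 24 h. In siControl cells they were 103, 132 and 123 untreated, 161, 163 and 156 at 8 h, and 170.5, 225 and 215 at 24 h. Both arms were higher at 24 h, with siPKCiz replicate 1 the brightest array. The change was 0.69 ± 0.18 in siPKCiz (adjusted p = 0.017) and 0.77 ± 0.18 in siControl cells (adjusted p = 0.00731). In siPKCiz cells it was 0.28 without replicate 1 (adjusted p = 0.0476). Without replicate 2 or 3 the calls were lost, with adjusted p between 0.0596 and 0.121. EPHB4, the receptor of ephrin-B2, was called with silencing only in the comparisons made and is described there. The other 10 Eph receptors (EPHA1, EPHA2, EPHA3, EPHA5, EPHA6, EPHA7, EPHA8, EPHA10, EPHB3 and EPHB6) were called in none of the 9 comparisons with all arrays. Without replicate 1, EPHA2 was called higher at 8 h in siPKCiz cells (0.38, adjusted p = 0.0377), EPHA7 lower at 8 h (-0.56, adjusted p = 0.0292) and EPHA5 lower at 24 h (-0.27, adjusted p = 0.0325) in siControl cells. EPHA2, a receptor common in epithelial tumours, lay between 1119.6 and 1650.1 in all arrays and was above the median of the arrays. Of the 13 Eph receptors, 9 were below it, among them EPHA4 and EPHB1 (mean log2 over all arrays 7.26 and 6.29).

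Of the ephrins, EFNA5 fell with time. EFNA5, a ligand of EphA receptors that is anchored to the membrane by a lipid, had intensities in siPKCiz cells of 1931, 1997 and 2062 untreated, 1898, 1946 and 1914 at 8 h, and 1574, 1466 and 1500.4 at 24 h. The siControl arrays had 2063, 2309 and 2226 untreated, 1825, 1879 and 1802 at 8 h, and 1673, 1486 and 1512 at 24 h. The 24 h arrays were the lowest in both arms and did not overlap with the untreated ones. The 24 h change was -0.40 ± 0.07 in siPKCiz (adjusted p = 0.000782) and -0.50 ± 0.07 in siControl cells (adjusted p = 7.26e-05). In siControl cells it was also lower at 8 h (-0.26 ± 0.07, adjusted p = 0.0181). The 24 h call in siControl cells held without any 1 replicate number, while the other two were lost without replicate 2 or 3 (adjusted p between 0.0595 and 0.265). EFNB2, ligand of EPHB4, was higher at 24 h in siControl cells (0.32 ± 0.09, adjusted p = 0.021), and EFNB3, also a transmembrane ligand, was lower (-0.29 ± 0.09, adjusted p = 0.0457). Both were lost without replicate 2 or 3 (adjusted p between 0.193 and 0.348). Over all arrays EFNB2 lay between 76.7 and 98.6 in siPKCiz and between 76.1 and 104 in siControl cells, and EFNB3 between 74.9 and 104 in siPKCiz and between 72.1 and 98.6 in siControl cells, both dim. EFNA2, EFNA4 and EFNB1 were called in no comparison.

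The 24 genes that were never called changed by between -0.20 and 0.39 at 8 h in siPKCiz cells and between -0.44 and 0.31 at 8 h in siControl cells. At 24 h they ranged between -0.22 and 0.34 in siPKCiz cells and between -0.12 and 0.32 in siControl cells. Of the 23 members dimmer than the median of all values (7.31 on the log2 scale), 8 were called in at least 1 comparison (34.8%), against 19 of the 28 brighter ones (67.9%). Over all genes the shares were 13.9% of the dimmer and 46.2% of the brighter. Without replicate 1, 27 calls were gained over the 9 comparisons, in 16 of the 51 genes, and none was gained without replicate 2 or 3. Calls over all genes also rose without replicate 1 at 8 h in siControl cells (2917 in place of 2087) and for silencing in the mean (5774 in place of 3664). In siPKCiz cells they fell, to 1123 from 1191 at 8 h and to 1737 from 1974 at 24 h. Among TGFβ changes the members' gains included PLXNA2 (0.56, adjusted p = 0.000593) and SEMA4B (-0.56, adjusted p = 0.00114) at 8 h in siControl cells. A gene that was not called is not shown to be unchanged.

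The arms were then compared. At 8 h, 6 genes were called in the same direction in both arms, which is 75% of those called in siPKCiz and 85.7% of those called in siControl cells; over all genes the shares were 78.9% and 45%. At 24 h it was 9 genes, 69.2% of those called in siPKCiz and 60% of those called in siControl cells, beside 71.1% and 62% over all genes. No gene was called in opposite directions. The shared genes were SEMA7A and NRP2, higher, and SEMA3A, SEMA4G, SEMA4D and NRP1, lower, at 8 h. At 24 h they were SEMA7A, NRP2, SEMA3C, EPHA4, EPHB1 and PLXNA3, higher, and SEMA4G, NRP1 and EFNA5, lower.

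**Figure D3:**
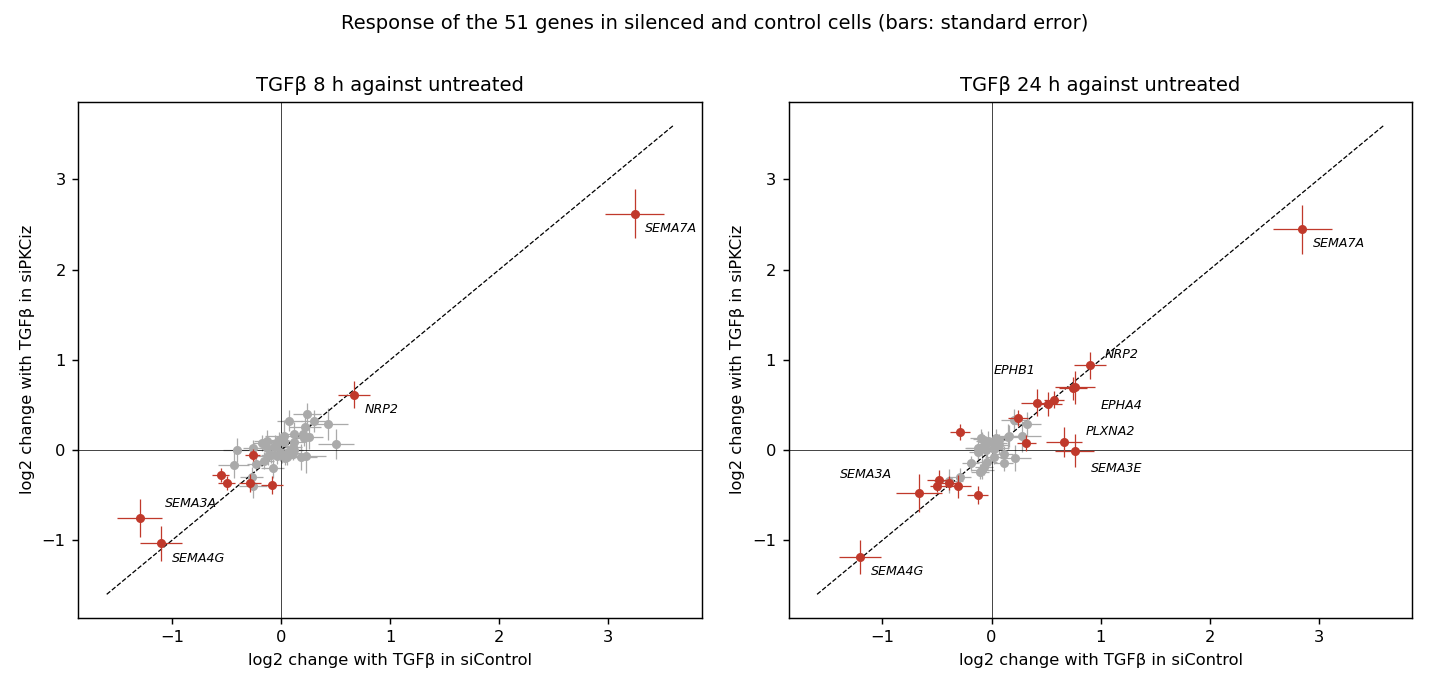
Log2 change with TGFβ of the 51 genes in siPKCiz cells (vertical) against siControl cells (horizontal) at 8 h and 24 h, with standard errors; red points were called in at least 1 arm and the dashed line marks equal change. SEMA7A lies below the line at both times, and PLXNA2 and SEMA3E lie near 0 on the vertical axis at 24 h.

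Whether the response itself differed between the arms was tested by the interaction of siRNA and TGFβ. None of the 51 genes was called by limma at 8 h or 24 h, beside 0% and 0% of all genes. With no adjustment, 3 members had a p under 0.05 at 8 h (5.88%, against 3.4% of all genes) and 5 at 24 h (9.8%, against 3.84%). For SEMA7A the interaction was -0.62 ± 0.38 at 8 h (95% interval -1.42 to 0.18) and -0.40 ± 0.38 at 24 h (95% interval -1.20 to 0.40), so that a smaller response in siPKCiz cells and an equal one both lie within the intervals. Without replicate 1, whose siControl array was low at 24 h, the 24 h value was -0.86 (adjusted p = 0.0511). Dropping replicate 2 instead shrank the 24 h value to -0.25, and dropping replicate 3 shrank it to -0.10. The 8 h value became -0.50, -0.60 and -0.76 as replicates 1, 2 and 3 were dropped in turn, with no call.

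The members with an unadjusted p under 0.05 at 8 h were EFNB3 (0.28 ± 0.13), NRP1 (0.28 ± 0.11) and PLXNC1 (-0.30 ± 0.14), each with an adjusted p of 1. At 24 h they were EFNB3 (0.48 ± 0.13), SEMA3E (-0.77 ± 0.26), PLXNC1 (-0.37 ± 0.14), PLXNA2 (-0.57 ± 0.23) and EPHA10 (-0.26 ± 0.12), again with an adjusted p of 1. A negative value means that the signed log2 change with TGFβ was lower in siPKCiz than in siControl cells. For PLXNC1, which fell with TGFβ, this is a larger fall in siPKCiz cells. For NRP1, which also fell, the positive value at 8 h is a smaller fall in siPKCiz cells. In EFNB3, PLXNC1 and SEMA3E the untreated groups of the 2 arms already lay apart. PLXNA2 had intensities in siPKCiz cells of 164, 162 and 139.8 untreated, 189, 148 and 154 at 8 h, and 189.5, 153 and 154 at 24 h. At 24 h in siControl cells they were 168, 298 and 299.6, with replicate 1 the lowest and within the siPKCiz range. Without replicate 1 the interaction was called for PLXNA2 at 24 h (-0.96 ± 0.13, adjusted p = 0.00282), for SEMA3E at 24 h (-1.003 ± 0.15, adjusted p = 0.00548) and for SEMA3A at 8 h (0.75 ± 0.13, adjusted p = 0.0256). With that setting 80 of all genes were called at 24 h and 58 at 8 h.

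**Figure D4:**
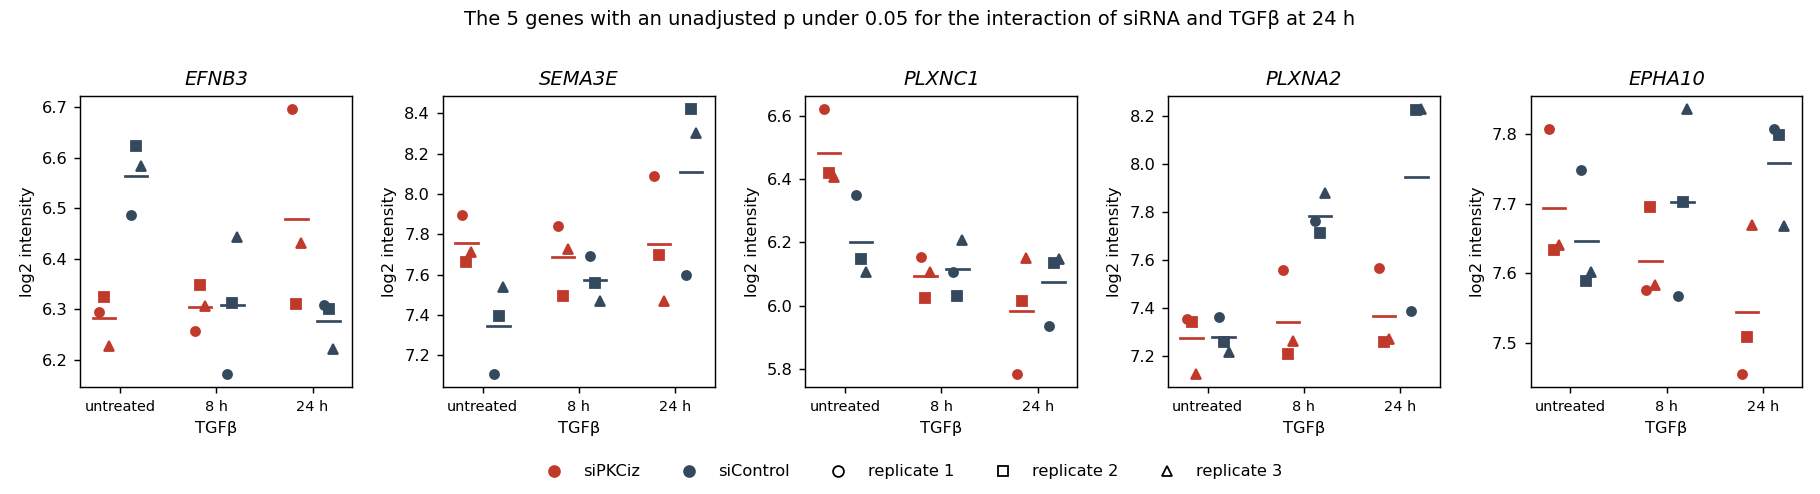
Log2 intensity of the 5 genes with an unadjusted interaction p under 0.05 at 24 h, in all 18 arrays, with siPKCiz in red left of siControl in dark blue; symbols are replicates and lines group means. In the PLXNA2 panel 2 of the 3 siControl arrays at 24 h stand above all siPKCiz arrays, and replicate 1 does not.

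With silencing, 11 of the 51 genes differed in the mean of the 3 conditions, 4 higher and 7 lower in siPKCiz cells, beside 19.9% of all genes (11.8% higher, 8.17% lower). The members' share was 21.6%. In untreated cells alone 1 gene was called, SEMA4B, which was lower, beside 1.45% of all genes called lower. SEMA4B, a transmembrane semaphorin, had intensities in siPKCiz cells of 837, 792 and 779 untreated, 745, 834 and 827 at 8 h, and 499, 688 and 730.0 at 24 h. siControl cells had 1169.6, 1094 and 1248 untreated, 1099.6, 742 and 849 at 8 h, and 932, 932 and 812 at 24 h. The arms did not overlap when untreated or at 24 h, but did at 8 h. The difference was -0.54 ± 0.14 in untreated cells (adjusted p = 0.0304; 0.273 without replicate 2 and 0.412 without replicate 3) and -0.39 ± 0.08 as the mean of the conditions (adjusted p = 0.00145). The mean difference was the only one of the 11 that stayed called without each replicate number in turn.

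SEMA7A was lower in siPKCiz cells, with a mean log2 difference of -0.65 ± 0.16 (1.57-fold lower, adjusted p = 0.00619). The difference was -0.31 untreated, -0.93 at 8 h and -0.71 at 24 h; the arms did not overlap when untreated or at 8 h. NRP2 was also lower (-0.36 ± 0.09, adjusted p = 0.00573), with differences of -0.35, -0.41 and -0.32 untreated, at 8 h and at 24 h, and its second probe set differed by -0.25 ± 0.06 (adjusted p = 0.00792). PLXNA2 was lower (-0.34 ± 0.10, adjusted p = 0.0162), with differences of -0.01 in untreated cells, -0.44 at 8 h and -0.58 at 24 h. PLXNB1, the receptor of SEMA4D, was lower by a small amount in each condition (-0.16 ± 0.05, adjusted p = 0.0249), with no overlap between the arms in any of the 3. Of the ligands of EphA receptors, EFNA1 (-0.43 ± 0.10, adjusted p = 0.00453) and EFNA3 (-0.27 ± 0.08, adjusted p = 0.0255) were lower. Over all arrays EFNA1 lay between 256 and 378 in siPKCiz and between 313 and 521 in siControl cells, EFNA3 between 189 and 256 in siPKCiz and between 222 and 375 in siControl cells, and PLXNB1 between 216 and 264 in siPKCiz and between 224 and 290.0 in siControl cells.

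The 4 genes that were higher in siPKCiz cells were SEMA3B, PLXNB2, EPHB4 and NRP1. SEMA3B had intensities in siPKCiz cells of 148, 109.5 and 97.9 untreated, 87.8, 89.0 and 88.4 at 8 h, and 91.6, 86.2 and 86.9 at 24 h. Those of siControl cells were 90.7, 89.9 and 86.2 untreated, 61.1, 82.1 and 81.5 at 8 h, and 65.1, 73.2 and 77.2 at 24 h. In each condition all siPKCiz arrays were above all siControl arrays, and the difference was 0.31 ± 0.07 (adjusted p = 0.00494). The probe set is dim, and siPKCiz replicate 1 untreated was its brightest array. PLXNB2, a plexin that binds class 4 semaphorins, had intensities in siPKCiz cells of 1659.9, 1719.7 and 1658 untreated, 1544, 1573 and 1415 at 8 h, and 1414, 1687 and 1458 at 24 h. In siControl cells they were 1440.0, 1469 and 1522 untreated, 1338, 1272 and 1159 at 8 h, and 1314, 1360.4 and 1205 at 24 h. Here too the arms did not overlap in any condition (0.23 ± 0.05, adjusted p = 0.00209). EPHB4 (0.17 ± 0.05, adjusted p = 0.0343) and NRP1 (0.16 ± 0.04, adjusted p = 0.0152) differed by less, and their arms overlapped except for NRP1 at 8 h, where the difference was 0.34. EPHB4 lay between 690.1 and 866 in siPKCiz and between 572 and 773 in siControl cells.

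Leaving out a replicate number changed most of these calls. Without replicate 2, 10 of the 11 lost the call, with adjusted p between 0.0607 and 0.386; without replicate 3, SEMA4B and SEMA3B stayed called. Without replicate 1, 10 stayed called and EFNA3 did not (-0.14, adjusted p = 0.0884), and the SEMA3B difference was 0.19. SEMA3A (0.40), EPHA4 (-0.21) and EPHB1 (-0.15) were also called then. The EFNA1 difference was -0.28 without replicate 3 (adjusted p = 0.222). Over all genes there were fewer calls for silencing in the mean as well: 837 without replicate 2 and 838 without replicate 3, against 3664 with all arrays. For TGFβ at 8 h in siControl cells 681 genes were called without replicate 2 and 802 without replicate 3, against 2087 with all arrays.

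**Figure D5:**
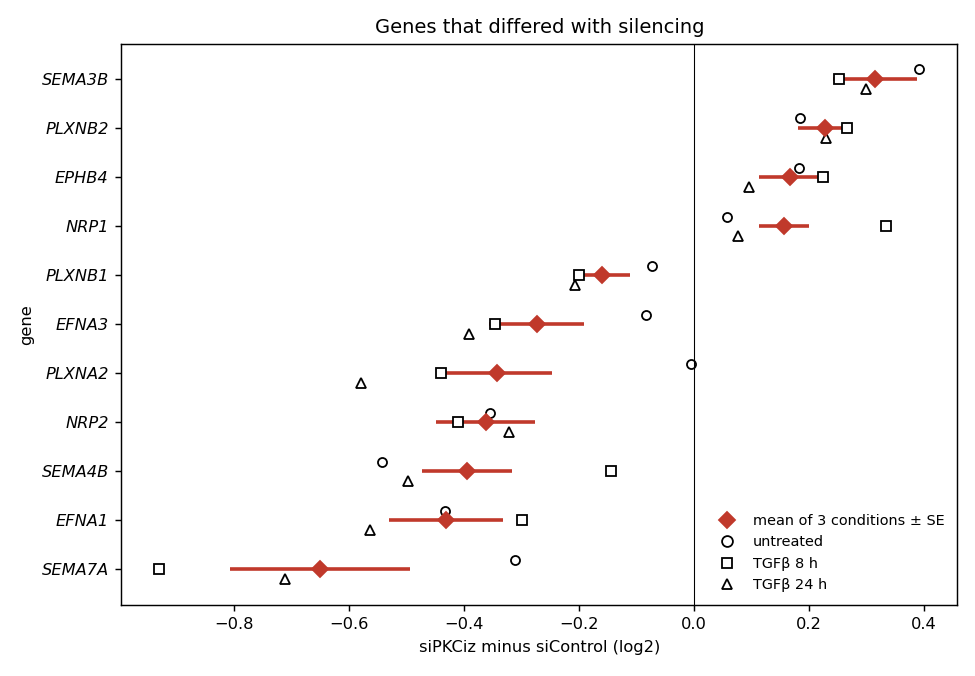
Log2 difference between siPKCiz and siControl cells for the 11 genes called in the mean of 3 conditions; red diamonds are the mean with its standard error and open symbols the differences of group means in each condition (untreated, 8 h, 24 h). The 4 genes on top are higher in siPKCiz cells in each condition, and SEMA7A has the lowest mean, at -0.65.

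Genes known to act with these families were examined as a list of 72, of which 66 were measured. At 8 h, 12 were called in siPKCiz cells (9 higher, 3 lower) and 21 in siControl cells (14 higher, 7 lower); at 24 h, 17 in siPKCiz cells (10 higher, 7 lower) and 19 in siControl cells (13 higher, 6 lower). These are 18.2% in siPKCiz and 31.8% in siControl cells at 8 h, beside 6.48% and 11.4% of all genes, and 25.8% and 28.8% at 24 h, beside 10.7% and 12.3%. Their median change at 24 h was 0.03 in siPKCiz and 0.10 in siControl cells, against -0.01 in both arms for all genes. CNTN1, a contactin, an adhesion molecule known from neurons, fell most (-1.38 ± 0.12 in siPKCiz and -1.41 ± 0.12 in siControl cells at 24 h, adjusted p = 6.02e-07 and 3.84e-07). NGEF (ephexin), the guanine nucleotide exchange factor that acts on RhoA below EphA receptors, rose (0.92 ± 0.13 in siPKCiz and 1.01 ± 0.13 in siControl cells at 24 h, adjusted p = 0.000105 and 3.71e-05). MICAL2, an actin-oxidising relative of the plexin effector MICAL1, rose as well (0.89 ± 0.10 in siPKCiz and 0.66 ± 0.10 in siControl cells at 24 h, adjusted p = 1.36e-05 and 0.000203).

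The adaptor genes GRB10 and GRB7, whose products bind activated Eph receptors, moved apart. GRB10 rose (0.92 ± 0.11 in siPKCiz and 1.06 ± 0.11 in siControl cells at 8 h, adjusted p = 6.68e-05 and 8.35e-06), and GRB7 fell (-0.50 ± 0.10 in siPKCiz and -0.91 ± 0.10 in siControl cells at 8 h, adjusted p = 0.00492 and 1.59e-05). FURIN, a protease that cleaves class 3 semaphorins, rose (0.77 ± 0.13 in siPKCiz and 0.95 ± 0.13 in siControl cells at 8 h, adjusted p = 0.00146 and 0.000128). With silencing, 19 of the 66 were called in the mean of conditions, 14 higher and 5 lower, which is 28.8% beside 19.9% of all genes (11.8% higher, 8.17% lower). The largest were CFL1 (cofilin, which severs actin filaments; 0.55), ADAM10 (a protease that sheds ephrins; 0.38) and FYN (a Src-family kinase; -0.38). In none of the 66 was the interaction called at 8 h or at 24 h.

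Markers of other cell types moved with some groups. The summed intensity of 5 fibroblast markers lay in siPKCiz cells at 586 to 625 untreated, 541 to 641 at 8 h and 852 to 967 at 24 h, and in siControl cells at 488 to 555, 515 to 557 and 734 to 782. LUM was higher at 24 h (0.84 in siPKCiz and 1.28 in siControl cells) and with silencing (0.55); it was below the median of the arrays in siControl cells untreated and at 8 h and above it in the other 4 groups. PDGFRA, PDGFRB, DCN and COL1A2 were below it in all groups. Of 3 neuronal markers, RBFOX3 and SNAP25 were above the median and SYP below. Their sum lay in siPKCiz cells at 1771 to 2196 untreated, 1289 to 1623 at 8 h and 1289 to 1575 at 24 h, and in siControl cells at 1731 to 2244, 1196 to 1336 and 1226 to 1453. The sum of the 4 measured leukocyte markers was lower with TGFβ and did not overlap with the untreated arrays: siPKCiz cells had 393 to 425 untreated, 352 to 375 at 8 h and 336 to 364 at 24 h, and siControl cells 393 to 440.1, 337 to 370.1 and 336 to 380.4. CD14 was the leukocyte marker that fell, from a mean log2 of 7.27 untreated to 6.67 at 8 h and 6.71 at 24 h in siPKCiz cells. In siControl cells it went from 7.24 to 6.58 at both times. The means of PTPRC, CD3E and ITGAM moved little and in both directions. All 4 leukocyte markers were below the median of the arrays in every group. The endothelial sum lay between 292 and 333 in all groups. The epithelial cadherin gene CDH1 fell with TGFβ, by 0.77 at 8 h and 1.37 at 24 h in siPKCiz cells and by 0.96 and 1.62 in siControl cells, and was higher with silencing (0.49, adjusted p = 0.00177). The other epithelial markers did not all go that way. CLDN4 rose, from a mean log2 of 7.20 untreated to 8.22 at 8 h and 8.19 at 24 h in siPKCiz cells. In siControl cells it rose from 7.18 to 8.72 and 8.43. KRT19 and EPCAM were lower in each TGFβ group than untreated, while KRT8 and KRT18 changed little. The part of all these cell type markers in the changes of the 51 genes was not tested.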

How the data were processed

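RNA of 18 A549 samples had been hybridised to Affymetrix whole-transcript arrays after labelling from 200 ng of total RNA, per the labels' protocols. The deposited values are linear intensities that the authors made with RMA in Partek, per the submitters' processing notes. Their log2 was taken once here. Of 28869 probe sets, 19310 had 1 gene symbol, 1752 several and 7807 none; the brightest probe set per symbol was kept, which left out 933 and gave 18377 genes. Depth does not apply to arrays: their number, 3 in each of 6 groups, limits how precise the values are. For TGFβ at 8 h in siControl cells the standard error had a median of 0.0996 over genes.

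Group means over all 18 arrays were fitted with limma 3.58.1 in R 4.3.3 (12 residual degrees of freedom), with Benjamini-Hochberg adjusted p-values over all genes in each of 9 comparisons. SEMA7A, the silenced genes and every member called in a comparison were named; the 14 members with the largest moderated F, and PLXNC1 as the receptor of SEMA7A (added after its values were seen), are given in every array, and the other called members by range or by the groups compared. Signalling partners were named by size of change, and promoters are those of called members, with 45 of the 51 found in RefSeq. The members and lists were chosen with earlier results of these data known. Replicate numbers were not used to pair the arrays in the main fit. Deviations of same-numbered arrays correlated at -0.514 to 0.258, with 7 of 45 pairs over 0.1. In replicate 1 the untreated arrays of the arms correlated at 0.0185. Its other pairs of an siPKCiz and an siControl array were all negative, at -0.514 to -0.278. Alternatives were quantile normalization, centring, a filter on dim genes, all probe sets, only the compared arrays, trended or robust variance, a replicate block and leaving out each replicate number.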

Additional observations from a re-analysis of the deposited data

How the results depend on the processing

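Of 89 alternative counts of called genes, 66 stayed within 1.5 times the count reported and 23 did not; no change reversed. One setting kept only the brighter genes, the 9189 at or above the median of the gene means. It gave 8 called members in place of 15 at 24 h in siControl cells and 6 in place of 13 at 24 h in siPKCiz cells. For silencing in the mean it gave 7 in place of 11. Of the 9189 genes, 20%, 17.2% and 33.3% were called. Fewer members were tested there: the cut lies above the median of all values, so some members counted as brighter above were left out. Of the called changes, 36 were of genes tested there, and all 36 stayed called. The replicate block gave 5 in place of 8 at 8 h in siPKCiz cells and 0 in place of 1 for silencing in untreated cells, where quantile normalization gave 2; the cause was not tested. Of the 58 called changes, the block kept 50 and quantile normalization 56. Leaving out each replicate number in turn gave 5 to 13 called members at 8 h and 4 to 19 at 24 h in siControl cells, and 2 to 9 at 8 h and 5 to 11 at 24 h in siPKCiz cells. It gave 0 to 8 between 24 h and 8 h, 0 to 4 for silencing in untreated cells, 1 to 13 for silencing in the mean, 0 to 1 for the interaction at 8 h and 0 to 2 at 24 h. In each of these 9 comparisons the highest of the 3 counts was the one without replicate 1. Over all genes the shares were 3.71% to 15.9% at 8 h and 4.11% to 15.6% at 24 h in siControl cells. In siPKCiz cells they were 1.76% to 6.11% and 4.24% to 9.45%. Between 24 h and 8 h they were 0.0599% to 3.65%, for silencing untreated 0.147% to 8.23% and in the mean 4.55% to 31.4%. For the interaction they were 0% to 0.316% at 8 h and 0% to 0.435% at 24 h. Each share was also highest without replicate 1. Only 15 of the 58 called changes stayed called without each number in turn. The fit on only the compared arrays was not run for the mean of 3 conditions, which uses all arrays. Of the 51 genes, 23 are dim, and with 3 arrays a group a change in a dim probe set that was not called may have been missed.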
